A study of Homo sapiens and Mus musculus with 13 samples.

Results

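Interferon-stimulated genes are the genes that cells switch on when an interferon binds its receptor. Type I and type III interferons act through the kinases JAK1 and TYK2 on factors that include STAT2, which joins IRF9 in the complex ISGF3 to bind the interferon-stimulated response element of target promoters. Interferon gamma acts on a further element, the gamma-activated site. Many of the products block a step of virus replication, and in tumors they mark a cell that has sensed interferon or nucleic acid. The members described here were a list of 35 such genes, read in a human and a mouse table of FPKM (fragments counted for a gene, scaled by its length and by the size of the library). The oligoadenylate synthetases, the interferon-inducible GTPases of the GBP family and the antigen presentation genes were not in the list. Of the 35 members, 34 had a human entry of their own among 24523 human symbols, and 35 had a mouse entry among 55228 mouse symbols. UBA7 stood in the human table only in a joint entry with MIR5193, at 5.96 to 7.73 FPKM over the 7 libraries, and was not counted there. A mean of at least 0.5 FPKM over a table was reached by 32 members in the human and 34 in the mouse table, and 32 passed in both. CMPK2 and IFI44L were below it in the human table, and Ifi44l was below it in the mouse table.

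The study asked how TRIM11, a ubiquitin E3 ligase, and KDM5C, a demethylase of histone H3 lysine 4, affect breast cancer cells. The human libraries came from MDA-MB-231, a triple-negative breast cancer line carrying lentiviral Cas9 and guide RNAs: 1 Control library with a GFP guide, 2 TRIM11-KD lines (TRIM11 guide 1 or 2), 2 KDM5C-KD lines (KDM5C guide 1 or 2) and 2 double knockdown (DKD) lines. DKD 1 carried TRIM11 guide 1 and DKD 2 carried TRIM11 guide 2, and both carried KDM5C guide 2. The mouse libraries came from mammary tumors of 3-month-old MMTV-PyVT mice, in which a viral oncogene is driven by a mammary tumor virus promoter, on a mixed C57BL/6N and FVB/N background. Tumors from 3 wild-type (Trim11+/+) mice and from 3 Trim11+/- mice, with exons 2 to 6 deleted on 1 allele by CRISPR/Cas9, gave 1 library each. The strain label of every tumor, wild type included, also carries Trim11+/- and a line number that differs from tumor to tumor, so the groups follow the genotype label. Every knockdown is compared with the same single Control library, so those comparisons share its error.

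The targeted genes were read first. Trim11 was 35.8, 36.3 and 39.2 FPKM in the Trim11+/+ tumors and 24.0, 22.8 and 22.9 FPKM in the Trim11+/- tumors. In the cell lines, TRIM11 was 12.6 FPKM in Control, 13.4 and 10.6 FPKM in TRIM11-KD 1 and 2, and 16.1 and 9.38 FPKM in DKD 1 and 2. The libraries labelled TRIM11-KD 1 and DKD 1 thus had no less TRIM11 mRNA than Control, and protein was not measured here. The paper's methods state that the CRISPR/Cas9 knockdown lines were checked by western blotting. KDM5C was 30.3 FPKM in Control and 18.8 to 22.7 FPKM in the 4 lines with a KDM5C guide. The MDA-MB-231 markers VIM and CD44 were at 1038 to 1309 and 188 to 347 FPKM, with ESR1 and PGR at or near 0, and the epithelial markers Epcam, Krt8 and Krt18 were each above 335 FPKM in every tumor. Tumor libraries held 8793199 to 11117125 recovered reads. Tested members had 13 to 1721 reads in a tumor, except Isg15, for which reads were not recovered. The depth of the cell line libraries is unknown.

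The promoters of 7 members are shown, chosen among those the results turn on because they hold the core of the response element within the printed bases. Members without it there, such as XAF1 and MX1, are not printed. They are human RefSeq promoters of build GRCh38.p14, given 5′ to 3′ on the gene's strand over the 150 bases before the listed start. Capitals mark the core of the interferon-stimulated response element, GAAA and GAAA with 2 bases of any kind between them, on either strand. In ISG15 and BST2 a pair of cores overlap and share their middle GAAA. The windows lie at chr1:1013347-1013496 (plus strand, ISG15), chr19:17405631-17405780 (minus, BST2), chr4:168318753-168318902 (minus, DDX60), chr1:78649639-78649788 (plus, IFI44), chr3:187368235-187368384 (plus, RTP4), chr3:122680689-122680838 (plus, PARP14) and chr2:6877627-6877776 (plus, RSAD2).
ISG15: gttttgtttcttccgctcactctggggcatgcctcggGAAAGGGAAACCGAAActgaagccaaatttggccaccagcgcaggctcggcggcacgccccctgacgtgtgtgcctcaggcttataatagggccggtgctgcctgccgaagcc
BST2: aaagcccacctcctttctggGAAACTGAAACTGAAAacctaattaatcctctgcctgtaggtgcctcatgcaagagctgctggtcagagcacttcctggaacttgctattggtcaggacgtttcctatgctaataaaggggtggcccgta
DDX60: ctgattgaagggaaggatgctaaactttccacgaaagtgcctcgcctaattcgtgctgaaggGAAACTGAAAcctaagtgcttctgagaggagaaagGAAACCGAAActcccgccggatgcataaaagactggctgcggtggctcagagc
IFI44: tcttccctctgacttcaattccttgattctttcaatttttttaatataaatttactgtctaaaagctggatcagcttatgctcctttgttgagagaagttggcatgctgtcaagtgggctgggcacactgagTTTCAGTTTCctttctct
RTP4: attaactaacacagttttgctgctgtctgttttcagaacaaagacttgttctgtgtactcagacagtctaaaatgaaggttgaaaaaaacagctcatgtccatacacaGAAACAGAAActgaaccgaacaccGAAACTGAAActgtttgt
PARP14: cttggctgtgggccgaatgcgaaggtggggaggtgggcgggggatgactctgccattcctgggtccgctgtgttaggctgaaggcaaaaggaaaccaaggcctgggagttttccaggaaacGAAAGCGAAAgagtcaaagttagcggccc
RSAD2: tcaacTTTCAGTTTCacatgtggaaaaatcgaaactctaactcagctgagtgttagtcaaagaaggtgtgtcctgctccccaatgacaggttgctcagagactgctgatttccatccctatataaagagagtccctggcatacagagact

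The first 6 belong to genes whose mouse counterparts were lower in Trim11+/- tumors by the rule given below, and RSAD2 was higher in both TRIM11-KD lines. IFI44 and RSAD2 have a further listed start each, and the window of the other RSAD2 start holds no core. Over the whole windows of 300 bases (250 before the start and 50 after), the table held 29 of the 35 members with 41 promoters. The response element core was in 22 of these 41 promoters (53.7%), against 3.57% of all 35116 promoters, and in 19 of the 29 members. The core of the gamma-activated site, TTC and GAA with 3 bases of any kind between them, was in 8 of the 41 (19.5%), against 7.66% of all promoters. IRF1 and IRF9, both transcription factors of the pathway, held the gamma-activated core and not the response element core. STAT2, ADAR, HERC6, CMPK2, SAMD9L, SP100 and XAF1 held neither in these windows. No entry was at hand for IFIT2, IFITM2, MX2, USP18, DHX58 and UBA7. A match is a description of letters and not of a bound site.

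In the tumors, the members stood lower in Trim11+/- than in Trim11+/+. The mean FPKM of 33 of the 34 tested members was lower in the Trim11+/- tumors, where 50.4% of all genes had a lower mean. The median log2 fold change of the members on the log2(FPKM + 1) scale was -0.47, beside -0.0048 for all 17328 genes. A member was called when the ratio of mean FPKM was at least 1.5 in either direction and the unadjusted p of limma, a moderated linear model, was under 0.05. By this rule 8 of 34 members were lower (1.87% of all genes were) and none was higher (1.74% of all genes were). After Benjamini-Hochberg adjustment over all genes in limma, 0 members had p under 0.05 (11 had an unadjusted p under 0.05, as had 6.94% of all genes), and the adjusted p of the 8 called members was 0.629 to 0.713. In bulk tumors, fewer cells that express a gene and less RNA per cell cannot be told apart.

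The direction rested unevenly on the 6 tumors. Trim11+/- 3 was the lowest library for 30 of 34 members, where it was the lowest for 20.9% of all genes, and Trim11+/+ 2 was the highest for 28 of 34, where it was the highest for 14.8% of all genes. The median of the members, as log2(FPKM + 1) less each gene's mean over the 6 tumors, was -0.09, 0.59 and 0.29 in Trim11+/+ 1 to 3. It was -0.09, 0.01 and -0.81 in Trim11+/- 1 to 3. Trim11+/+ 1 therefore lay beside Trim11+/- 1 and 2, and the same measure over all genes was between -0.01 and 0.02 in every tumor. Without Trim11+/- 3, 4 members were called lower (2.09% of all genes were) and the median log2 fold change was -0.29. Without Trim11+/+ 2, 1 member was called lower (1.71% of all genes were), and without Trim11+/+ 3, 4 were (1.92% of all genes were). Without Trim11+/+ 1, 16 were called lower (2.41% of all genes were). Bst2 alone was called in each of the 6 fits that leave out 1 tumor.

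**Figure D1:**
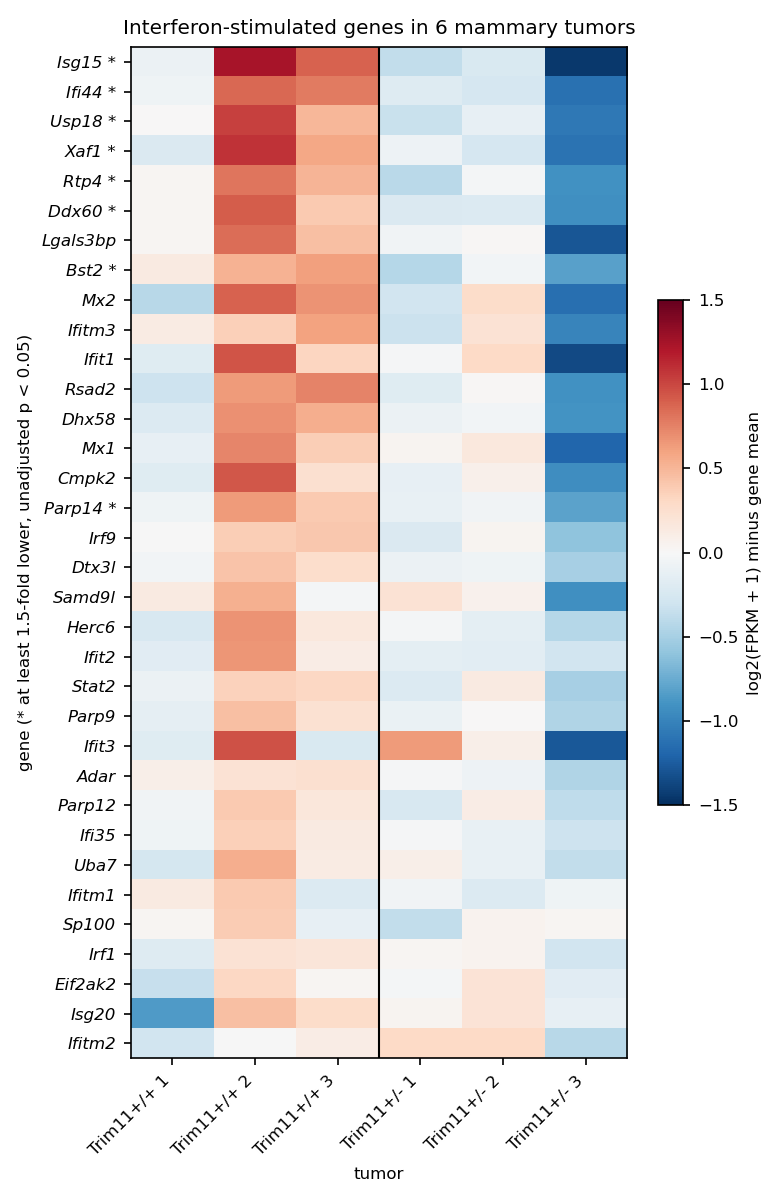
Heat map of the 34 tested members (rows, ordered by log2 fold change, lowest at the top) in the 6 tumors (columns). Color gives log2(FPKM + 1) minus the gene's mean, red above and blue below it, limited to 1.5 either way, and an asterisk marks the 8 called members. The column of Trim11+/- 3 is the lowest for 30 members and that of Trim11+/+ 2 the highest for 28.

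ISG15 is a ubiquitin-like protein that UBA7 activates, HERC6 conjugates in the mouse and USP18 removes. Isg15 (mm10 chr4:156199424-156200818) was 23.3, 59.9 and 46.6 FPKM in the Trim11+/+ tumors and 18.9, 21.0 and 8.47 FPKM in the Trim11+/- tumors. No Trim11+/- tumor reached the lowest Trim11+/+ tumor, although the lowest wild-type tumor and the highest Trim11+/- tumor lay close together. The means were 43.3 ± 18.5 and 16.1 ± 6.73 FPKM (SD, n = 3 each), a ratio of 0.373. The log2 fold change was -1.36 (SE 0.44), with an adjusted limma p of 0.647. Usp18 (chr6:121245906-121270917) was 3.44, 7.97 and 5.25 FPKM against 2.51, 3.06 and 1.101 FPKM, again without overlap. Its ratio was 0.400 and its adjusted limma p was 0.669. Uba7 and Herc6 did not pass, at ratios of 0.793 and 0.582. Their groups overlapped.

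Bst2 (chr8:71534255-71537456) encodes tetherin, which holds budding virus at the cell surface. It was 59.7, 78.5 and 83.5 FPKM in the Trim11+/+ tumors and 39.9, 52.9 and 30.5 FPKM in the Trim11+/- tumors. The groups did not overlap, and the ratio of 0.556 had a log2 fold change of -0.85 (SE 0.22) and an adjusted limma p of 0.629. Among the other membrane factors, the IFITM proteins that hinder virus entry, Ifitm3 was 180, 213 and 253 against 133, 193 and 83.2 FPKM and narrowly missed the p rule. Ifitm1 had a ratio of 0.782. Ifitm2 was the only tested member with a higher mean in Trim11+/-, with a ratio of 1.11, and its groups overlapped. The IFITM genes are close copies whose reads may be split between them.

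Rtp4 (chr16:23520291-23614222), a receptor transporter protein induced by interferon, was 27.2, 47.1 and 38.5 FPKM against 19.8, 26.0 and 13.7 FPKM. Here too the genotypes did not overlap, with a ratio of 0.528 and an adjusted limma p of 0.635. Ifi44 (chr3:151730922-151749960) was 5.39, 11.1 and 10.5 FPKM against 4.83, 4.62 and 2.06 FPKM. Its groups did not overlap, but Trim11+/+ 1 was nearer to the Trim11+/- tumors than to its own group. The ratio was 0.427 and the adjusted limma p 0.658. Xaf1 (chr11:72301629-72313733), whose product antagonizes inhibitors of apoptosis, was 3.84, 10.9 and 7.44 FPKM against 4.34, 3.71 and 1.61 FPKM. Trim11+/+ 1 was below Trim11+/- 1, so that the groups overlapped, and the ratio of 0.435 had an adjusted limma p of 0.713.

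Ddx60 (chr8:61928087-62038244), an RNA helicase of antiviral defense, had the lowest ratio of the members, 0.362. It was 1.68, 3.92 and 2.44 FPKM against 1.25, 1.27 and 0.386 FPKM, without overlap and with an adjusted limma p of 0.671. Of the other RNA-binding effectors, Dhx58 (LGP2) had a ratio of 0.590 with overlapping groups. Adar, the adenosine deaminase that edits double-stranded RNA, was 10.98, 12.1 and 12.3 against 10.2, 9.69 and 7.27 FPKM. It did not overlap, but its ratio of 0.767 was short of the fold rule. Eif2ak2, the kinase PKR, stood near equality at a ratio of 0.990, as did the nuclease Isg20 at 0.988.

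Parp14 (chr16:35832874-35871544), an ADP-ribosyltransferase, was 7.24, 12.4 and 10.3 FPKM against 6.96, 7.28 and 3.91 FPKM, with a ratio of 0.607 and an adjusted limma p of 0.713. Its groups overlapped by Trim11+/- 2. Dtx3l, a ubiquitin ligase that partners with PARP9, was 11.3, 16.05 and 14.3 against 10.95, 11.2 and 8.03 FPKM, without overlap, at a ratio of 0.724 that missed the fold rule. Parp9 and Parp12 had ratios of 0.759 and 0.776 with overlapping groups. Lgals3bp, a secreted glycoprotein, did not overlap either, at 31.1, 54.8 and 41.8 against 29.2, 30.7 and 11.9 FPKM, and its unadjusted p was above 0.05 despite a ratio of 0.562. In all, 9 of 34 members had all Trim11+/- tumors below the lowest Trim11+/+ tumor (6.78% of all genes did), and 0 had the reverse (6.60% of all genes did). For each such gene the two-sided exact permutation test gives p = 0.1, the smallest that 3 tumors against 3 allow.

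**Figure D2:**
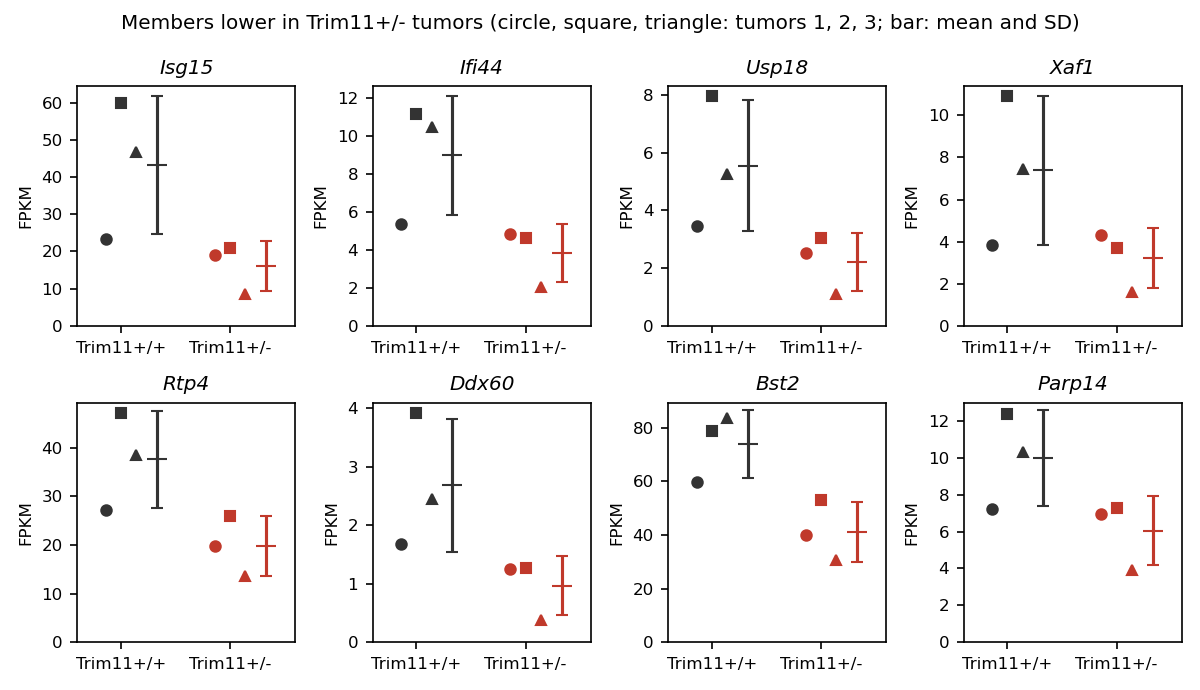
FPKM (linear axes from 0) of the 8 members called lower, in Trim11+/+ (black) and Trim11+/- (red) tumors, with the mean and SD of 3 tumors beside the points. The lowest wild-type point is tumor 1 in all 8 genes, and the lowest Trim11+/- point is tumor 3.

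No member of the transcription factor, IFIT, MX and viperin groups was called in the tumors. Among the factors, Irf9 was 16.8, 22.1 and 22.7 against 14.4, 17.3 and 10.8 FPKM, with an unadjusted p under 0.05 and a ratio of 0.690 that fell short of the fold rule. Stat2 was 9.10, 12.6 and 12.3 against 8.33, 10.7 and 6.61 FPKM, with a ratio of 0.755. Irf1, which interferon gamma induces strongly, had the ratio nearest to 1 of the factors, 0.906. Ifit1, Ifit2 and Ifit3, which bind foreign RNA ends or each other, had ratios of 0.614, 0.683 and 0.800. Ifit3 was 5.14, 12.5 and 4.91 against 9.79, 6.39 and 1.87 FPKM, and the order of the genotypes was mixed. Mx1 and Mx2, dynamin-like GTPases, had ratios of 0.549 and 0.475, and the neighbors Rsad2 (viperin) and Cmpk2 had ratios of 0.476 and 0.581. For all of these members the genotypes overlapped.

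The other genes of the pathway gave a reference. The 10 interferon genes listed in the mouse table were each at or below 0.341 FPKM in every tumor, 7 of them at 0 throughout, and none reached the filter. None of 6 receptor chains was called. Among the signal carriers Jak1, Jak2, Tyk2, Irf3, Irf7 and Tbk1, none was called. Irf7, the interferon-induced factor, was 19.5, 46.6 and 32.9 against 22.7, 22.4 and 6.95 FPKM and did not pass. None of 4 inhibitors was called. Socs1 was 0.661, 1.69 and 1.75 against 0.650, 0.391 and 0.736 FPKM.

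Markers of other cells were read in the same tumors. The summed level of 6 macrophage markers was 247 to 318 FPKM in the Trim11+/+ and 222 to 253 FPKM in the Trim11+/- tumors, lowest in Trim11+/- 3. The 6 T cell markers summed to 1.89 to 4.43 and 0.984 to 2.43 FPKM, also lowest in Trim11+/- 3. NK cell markers summed to 0.566 to 0.940 and 0.747 to 1.75 FPKM, and B cell markers to at most 0.958 FPKM. In the plasmacytoid dendritic cell list the sums of 19.9 to 44.1 and 9.56 to 158 FPKM were mostly Ly6d, while the defining marker Siglech was at most 0.291 FPKM. Neutrophil markers summed to 17.8 to 37.3 and 17.7 to 20.2 FPKM, with Ly6g at 0 in all tumors. Endothelial markers summed to 11.05 to 17.3 and 9.32 to 15.5 FPKM, fibroblast markers to 75.4 to 174 and 75.0 to 125 FPKM, and epithelial markers to 1213 to 1555 and 1285 to 1647 FPKM. Adipocyte markers ranged from 11.9 to 93.2 and from 7.01 to 61.3 FPKM, and skeletal muscle markers from 14.2 to 151 and from 0.444 to 169 FPKM, with Trim11+/- 3 the lowest in both lists. Of these lists, Gzma of NK cells was called higher and S100a9 of neutrophils lower in Trim11+/-, with adjusted limma p of 0.647 and 0.635. Gzma was 0.182, 0.293 and 0.198 against 0.536, 1.13 and 1.02 FPKM. It thus passed the filter only through the Trim11+/- tumors, and the other NK cell markers were below the filter. S100a9 was 5.43, 1.70 and 2.67 against 0.517, 0.436 and 1.43 FPKM. Trim11+/- 3 was also the lowest tumor for the endothelial and the plasmacytoid dendritic cell lists. It was not the lowest for the other lists. For NK cell markers it was the highest tumor, at 1.75 FPKM. Among the Trim11+/- tumors it was the highest for B cell and neutrophil markers, at 0.575 and 20.2 FPKM. For fibroblast markers it lay in between, at 90.5 FPKM. The part of these cells in the result was not tested.

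**Figure D3:**
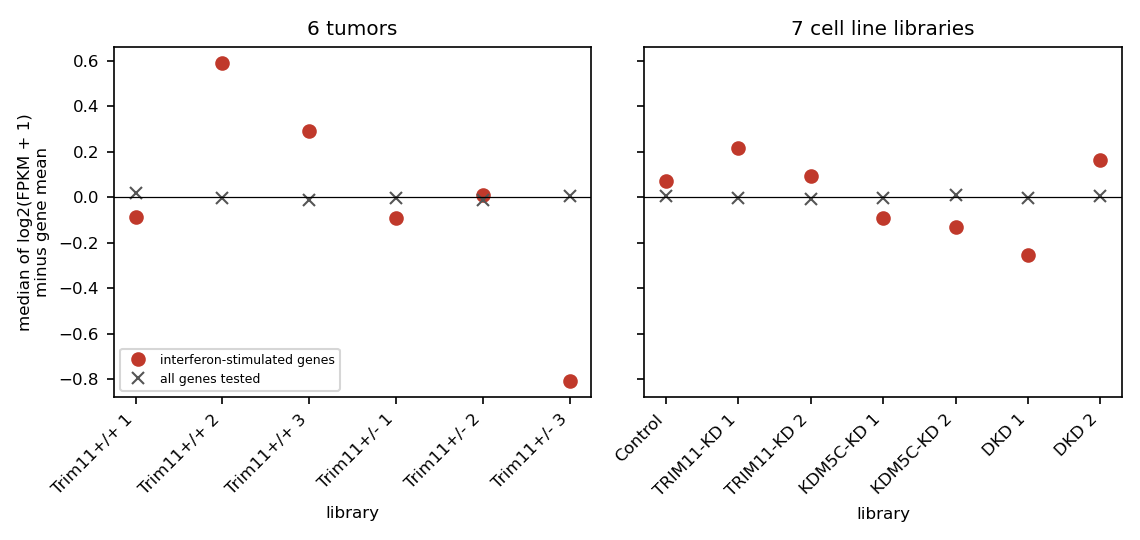
Median over the tested members (red circles) and over all tested genes (gray crosses) of log2(FPKM + 1) minus the gene's mean over its table, for each tumor and each cell line library. Trim11+/- 3 is at -0.81 and Trim11+/+ 2 at 0.59, while the cell line libraries lie between -0.25 and 0.22.

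In the cell lines the spread of the members was narrower and the 2 lines of a knockdown often differed. A member was counted as changed when its 2 lines lay on the same side of Control by a factor of 1.5 or more, with no p-value. In the lines labelled TRIM11-KD, 3 of 32 members were higher (3.25% of all genes were) and 0 were lower (2.58% of all genes were), with a median log2 ratio to Control of 0.08 beside -0.02 for all 12636 genes. In KDM5C-KD, 1 member was higher (5.22% of all genes were) and 1 lower (3.97% of all genes were), with a median of -0.18. In DKD, 1 was higher (5.71% of all genes were) and 3 were lower (4.87% of all genes were), with a median of -0.13. The share of members was near the share of all genes in most of these counts.

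MX1 (hg19 chr21:42791947-42841998), a GTPase that traps viral nucleocapsids, was the only member above Control by the rule in all 3 knockdowns. It was 4.62 FPKM in Control, 7.45 and 8.78 FPKM in TRIM11-KD 1 and 2, 7.14 and 8.68 FPKM in KDM5C-KD 1 and 2, and 9.90 and 11.5 FPKM in DKD 1 and 2. All 6 knockdown lines lay above the 1 Control library, which has no replicate. Over the 7 libraries the log2 fold change to Control on the log2(FPKM + 1) scale was 0.69, 0.66 and 1.05 (SE 0.20 each), with adjusted limma p of 0.988, 0.504 and 0.435. MX2 (chr21:42733926-42781320), its neighbor and close copy, was 1.75 FPKM in Control and 3.19 and 2.64 FPKM in TRIM11-KD. It was 1.70 and 1.82 FPKM in KDM5C-KD and 2.23 and 3.35 FPKM in DKD, so that DKD 2 but not DKD 1 was near TRIM11-KD.

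RSAD2 (chr2:7005688-7038370) encodes viperin, a radical enzyme that makes a chain-ending nucleotide. It was 0.658 FPKM in Control, 1.41 and 1.02 FPKM in TRIM11-KD, 0.445 and 0.263 FPKM in KDM5C-KD and 0.317 and 0.511 FPKM in DKD. Both TRIM11-KD lines were above Control and all 4 lines with a KDM5C guide were below it. These are low levels. CMPK2, which lies beside RSAD2 on the opposite strand and overlaps its annotated span, was 0.0716 FPKM in Control, 0.192 and 0.137 FPKM in TRIM11-KD, 0.0528 and 0 FPKM in KDM5C-KD and 0.0830 and 0.166 FPKM in DKD. It stayed below the filter, and the libraries do not keep strand.

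IFIT2 (chr10:91043451-91069028) was the member lower in both KDM5C-KD lines. It was 23.4 FPKM in Control, 34.5 and 23.3 FPKM in TRIM11-KD, 15.4 and 15.1 FPKM in KDM5C-KD and 14.04 and 24.0 FPKM in DKD. IFIT1 and IFIT3 also had TRIM11-KD 1 above Control and both KDM5C-KD lines below it. IFIT1 was 7.76 FPKM in Control, 10.5 and 8.30 FPKM in TRIM11-KD, 6.65 and 4.10 FPKM in KDM5C-KD and 5.50 and 13.6 FPKM in DKD. For all 3 IFIT genes DKD 1 was below Control and DKD 2 above it.

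The 3 members lower in both DKD lines were IFI44, SAMD9L and RTP4. IFI44 (chr1:79115481-79129763) was 5.22 FPKM in Control, 7.52 and 4.58 FPKM in TRIM11-KD, 4.84 and 3.09 FPKM in KDM5C-KD and 2.90 and 2.73 FPKM in DKD. SAMD9L (chr7:92759369-92777698), a restriction factor of poxviruses and a growth suppressor, was 1.58 FPKM in Control and 0.704 and 0.779 FPKM in DKD. It was also low in TRIM11-KD 2 and KDM5C-KD 2, at 0.738 and 0.807 FPKM, but not in TRIM11-KD 1 and KDM5C-KD 1, at 1.69 and 1.36 FPKM. RTP4 was 0.983 FPKM in Control, 0.931 and 0.591 FPKM in TRIM11-KD, 0.996 and 0.268 FPKM in KDM5C-KD and 0.226 and 0.647 FPKM in DKD.

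The 2 DKD lines, which carry different TRIM11 guides, did not give 1 picture. ISG15 (chr1:936518-949920) was 196 FPKM in Control, 197 and 180 FPKM in TRIM11-KD, 138 and 201 FPKM in KDM5C-KD, and 92.0 FPKM in DKD 1 but 245 FPKM in DKD 2. The median log2 ratio of the 32 members to Control was -0.38 in DKD 1 and 0.09 in DKD 2. In DKD 1, 7 of 32 members were above Control, and in DKD 2, 20 were. Over all genes the median log2 ratio was -0.009 in DKD 1 and 0.001 in DKD 2. The share of all genes above Control in each line was not counted. USP18 was 0.637 FPKM in Control and highest in the lines with TRIM11 guide 2, at 1.56 FPKM in TRIM11-KD 2 and 1.96 FPKM in DKD 2, against 0.673 to 1.03 FPKM in the other 4 knockdown lines. The lambda interferon gene IFNL1 was also highest in these lines, at 0 in Control, 0.816 FPKM in TRIM11-KD 2, 1.28 FPKM in DKD 2 and at most 0.215 FPKM elsewhere. Its mean was below the filter, and both patterns were singled out after their values were seen.

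**Figure D4:**
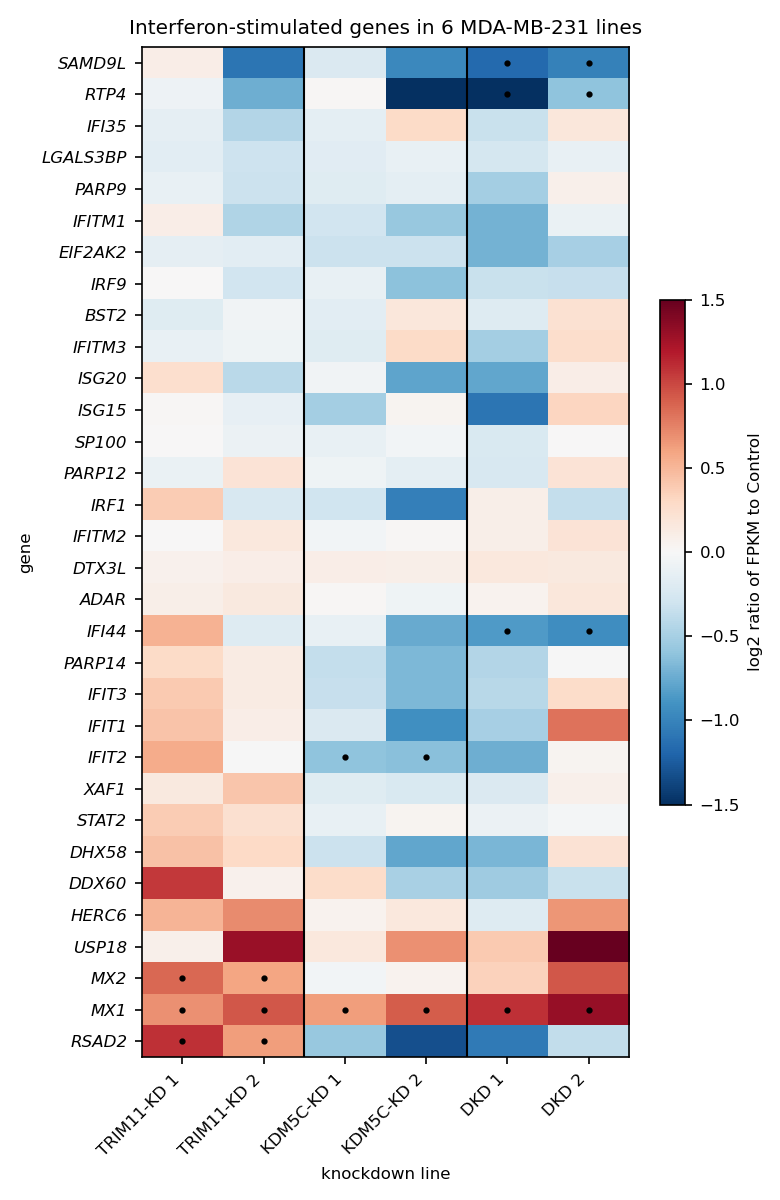
Heat map of the log2 ratio of FPKM to the Control library for the 32 tested members (rows, ordered by the mean of the TRIM11-KD lines) in 6 knockdown lines (columns). Red is above and blue below Control, limited to 1.5 either way, and dots mark genes for which both lines pass 1.5-fold. MX1 is dotted in all 3 knockdowns, and DKD 1 and DKD 2 differ in color for many rows.

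STAT2, IRF1 and IRF9, the transcription factors of the list, met the fold rule in no knockdown. STAT2 was 15.7 FPKM in Control, 20.4 and 18.6 FPKM in TRIM11-KD, 14.5 and 16.1 FPKM in KDM5C-KD and 14.7 and 15.4 FPKM in DKD. IRF1 was 14.5 FPKM in Control and ranged from 7.13 FPKM in KDM5C-KD 2 to 18.9 FPKM in TRIM11-KD 1. IRF9 was 16.9 FPKM in Control and 11 to 16.9 FPKM in the knockdown lines. The highest levels of the list, per length, were those of IFITM3, at 402 to 700 FPKM, LGALS3BP, at 218 to 270 FPKM, BST2, at 155 to 208 FPKM, and ISG15, and none of these met the rule. ADAR, SP100, IFITM2 and DTX3L varied little. DTX3L, for example, was 8.91 FPKM in Control and 9.35 to 9.96 FPKM in the knockdown lines.

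Of the other pathway genes in the cell lines, the 11 interferon genes were at or below 1.28 FPKM, 8 of them at 0 in all libraries. None of the 6 receptor chains met the rule. Among the signal carriers JAK1, JAK2, TYK2, IRF3, IRF7 and TBK1, only JAK2 met the rule. It was lower in KDM5C-KD and in DKD, at 1.66 FPKM in Control against 1.09 and 0.857 FPKM and 0.935 and 0.812 FPKM. Of the 4 inhibitors, SOCS1 was higher in TRIM11-KD and DKD, at 0.523 FPKM in Control against 2.00 and 1.31 FPKM and 4.76 and 1.19 FPKM. In KDM5C-KD 1 and 2 SOCS1 was 2.02 and 0.143 FPKM, on either side of Control, and its level in Control is low. PTPN6 was higher in KDM5C-KD, at 1.85 FPKM in Control against 3.05 and 4.63 FPKM.

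The knockdowns were then compared with each other in limma over the 6 knockdown lines, without the shared Control. After Benjamini-Hochberg adjustment in limma 0 members differed in any of the 3 contrasts, and the lowest adjusted p was 0.430. At an unadjusted p under 0.05, 7 of 32 members were lower in KDM5C-KD than in TRIM11-KD (4.27% of all genes were) and 0 were higher (5.60% of all genes were). They were STAT2, IFIT2, IFIT3, MX2, RSAD2, DHX58 and PARP14, with log2 differences from -0.85 for IFIT2 to -0.33 for STAT2. RSAD2 passed the filter only through the TRIM11-KD lines. With a mean of at least 1 FPKM required, the 7 became 5. IFIT3 was 40.4 FPKM in Control, 52.9 and 44.02 FPKM in TRIM11-KD, 31.8 and 25.2 FPKM in KDM5C-KD and 30.3 and 48.7 FPKM in DKD. PARP14 was 7.29 FPKM in Control, 8.89 and 7.93 FPKM in TRIM11-KD, 5.71 and 4.57 FPKM in KDM5C-KD and 5.40 and 7.25 FPKM in DKD. DHX58 was 2.79 FPKM in Control, 3.78 and 3.44 FPKM in TRIM11-KD, 2.23 and 1.62 FPKM in KDM5C-KD and 1.73 and 3.24 FPKM in DKD. For IFIT3, PARP14, DHX58 and RSAD2, Control lay between the TRIM11-KD and the KDM5C-KD lines.

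Between DKD and TRIM11-KD, 5 of 32 members were lower in DKD at an unadjusted p under 0.05 (3.26% of all genes were) and 0 were higher (3.76% of all genes were). They were STAT2, RSAD2, IFI44, DDX60 and EIF2AK2, and the adjusted limma p was 0.700 or more for each. With a mean of at least 1 FPKM required, the 5 became 4. EIF2AK2 (chr2:37326353-37384665) was 21.8 FPKM in Control, 19.8 and 19.4 FPKM in TRIM11-KD, 17.4 and 17.5 FPKM in KDM5C-KD and 13.3 and 15.4 FPKM in DKD, below Control in all 6 lines. DDX60 was 6.82 FPKM in Control and 14.2 FPKM in TRIM11-KD 1 but 7.14 FPKM in TRIM11-KD 2, and 8.24 and 4.85 FPKM in KDM5C-KD and 4.72 and 5.41 FPKM in DKD. Between DKD and KDM5C-KD, 0 members were higher (5.87% of all genes were) and 0 were lower (5.81% of all genes were) at an unadjusted p under 0.05. The difference for ISG15 there was -0.15 on the log2 scale, with a confidence interval from limma of -1.22 to 0.93, which spans changes in either direction. Without the library labelled TRIM11-KD 1 the counts of 7 and 5 both became 0. Without KDM5C-KD 2 the 7 became 1. Without DKD 1 the 5 became 1, and without DKD 2 they became 8.

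The direction of each gene was set side by side between TRIM11-KD lines and Trim11+/- tumors, which share no library. Of 32 members tested in both tables, 18 had a mean above Control in the lines labelled TRIM11-KD and a mean log2 level below wild type in Trim11+/- tumors, 11 were lower in both, 2 were lower in the lines and higher in the tumors, and IFITM2 was higher in both. The direction was the same for 12 of 32 members (49.9% of 9260 symbol-matched genes had the same direction). The 18 included STAT2, all 3 IFIT genes, both MX genes, RSAD2, DHX58, DDX60, XAF1, USP18 and HERC6. For IFI44, IFIT2, IRF1 and PARP12, also among the 18, the 2 lines lay on opposite sides of Control. Of all 32 members, 15 were above Control in both TRIM11-KD lines and 7 below it in both. MX1, MX2 and RSAD2, the members higher in both TRIM11-KD lines, had log2 ratios of 0.69 and 0.93, of 0.86 and 0.59, and of 1.10 and 0.63. In the tumors their log2 fold changes were -0.66, -0.76 and -0.71, and their groups overlapped. The members called lower in the tumors were mixed in the lines. ISG15, with a tumor log2 fold change of -1.36, had ratios of 0.01 and -0.13 in the 2 TRIM11-KD lines, and BST2 and RTP4 were below Control in both.

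The 11 members lower on both sides, by the mean of the 2 lines, were IFI35, IFITM1, IFITM3, BST2, IRF9, ISG15, LGALS3BP, PARP9, RTP4, SAMD9L and SP100. Their mean TRIM11-KD ratios ran from -0.50 for SAMD9L to -0.04 for SP100 on the log2 scale. The 2 lines could differ, with SAMD9L at 0.10 and -1.10 and RTP4 at -0.08 and -0.73. IFITM1, IRF9, ISG15, SAMD9L and SP100 were above Control in TRIM11-KD 1 and below it in TRIM11-KD 2. Of the 11 members called in either table, 3 had the same direction, namely BST2, ISG15 and RTP4. MX1, MX2 and RSAD2 entered the 11 by being higher in the lines. With nearly all members lower in the tumors, their mismatch was close to fixed in advance. The share over all called genes was not counted, and no conclusion is drawn from the 3. For the other knockdowns, with the same tumors and the same Control, 21 of 32 members had the same direction in KDM5C-KD (48.9% of all matched genes had) and 22 of 32 in DKD (47.8% of all matched genes had). These 3 counts share tumors and Control and are not independent of each other. With nearly all members lower in the tumors, each count mainly follows how many members lay below Control. The matched genes were not one-sided in the tumors, so their share is not a like comparison.

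**Figure D5:**
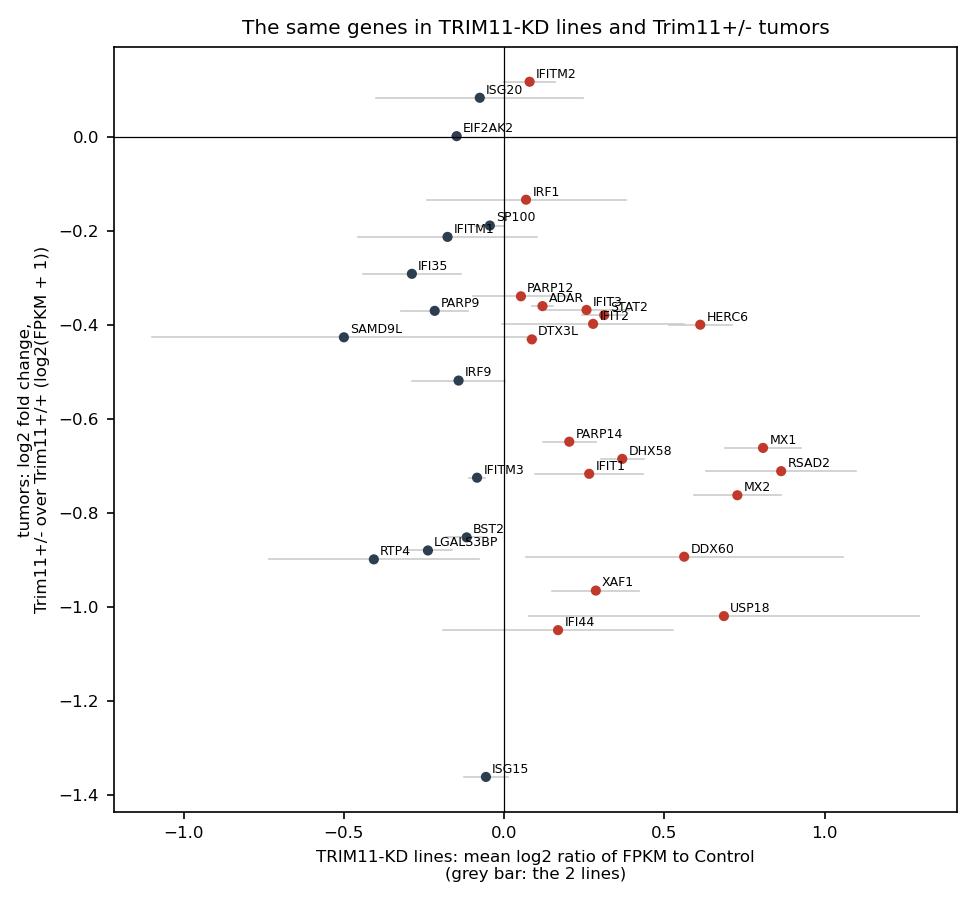
Each point is 1 of 32 members: the horizontal axis gives the mean log2 ratio of FPKM to Control in TRIM11-KD lines (gray bar, the 2 lines) and the vertical axis the log2 fold change of Trim11+/- over Trim11+/+ tumors. Red points have a mean above Control in the lines, and 18 of these 19 lie below 0 in the tumors.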

How the data were processed

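RNA-Seq was read in 7 MDA-MB-231 libraries and 6 mouse tumors, 1 library each. Poly(A) libraries were non-directional and sequenced in pairs. The authors trimmed reads with Cutadapt, mapped them with HISAT2 to hg19 or mm10 and deposited 1 table of FPKM values per species, which the methods credit to Cufflinks with default parameters. The submitters' processing notes name Bowtie 0.12.2 and also mm8, with no role given. FPKM already corrects for gene length and library size. It does not show the counting error of the reads behind it.

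Of 26006 human rows, 25 symbols turned into dates were dropped, and of rows that share a symbol the one with the highest mean was kept. Genes with a mean of at least 0.5 FPKM over a table were tested, 12636 human and 17328 mouse. The mouse values were whole reads (within 0.02 of a read) in all 6 tumors for 99.4% of symbols with 1 annotation entry, which gave read numbers and library totals. Tumors, and knockdowns among themselves, were compared on log2(FPKM + 1) with limma 3.58.1 (eBayes with a trend, Benjamini-Hochberg adjustment over all genes of the table, R 4.3.3). The comparison among knockdowns left out 2 of the 12636 genes, which were at 0 in all 6 lines. Against the single Control no test was led with. Single genes in tumors had a two-sided exact permutation test (scipy 1.17.1). The limma code was tested on simulated data. Figures used matplotlib 3.10.9, numpy 2.4.6, pandas 2.3.3 and Python 3.11.15.

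Groups came from the labels. Nothing says that lines of a knockdown are separate cultures beyond their guides, so p-values measure only the spread between these libraries. The genes given sample by sample were those called in tumors, changed in both lines of a knockdown, or at an unadjusted p under 0.05 between knockdowns, with STAT2, IRF1, IRF9 and ISG15. Others were named as values or contrasts to these. The members, the pathway genes, the cell markers and the motifs were chosen with earlier results of these data known. Same-numbered tumors did not deviate together (r = -0.33, 0.04 and -0.13 across genes, which are not independent replicates). A number marks a shared TRIM11 guide only between TRIM11-KD and DKD lines. Gene positions are those of the GENCODE annotation for hg19 and mm10. Alternatives are listed in the closing section, and limma voom on recovered reads was added after seeing the data. A result on a further pathway gene is not reported here.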

Additional observations from a re-analysis of the deposited data

Results flagged for a closer look

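For 4 members both TRIM11-KD lines were above Control while all Trim11+/- tumors were below the lowest Trim11+/+ tumor. Both TRIM11-KD lines were above Control for 32.6% of all human genes, by any amount. All Trim11+/- tumors were below the lowest Trim11+/+ tumor for 6.78% of all mouse genes. The share of matched genes with both was not counted, so the 4 cannot be set against a background. The difference between the lines and the tumors was not tested. The log2 fold change in tumors was -0.36 for ADAR, -0.89 for DDX60, -0.43 for DTX3L and -1.02 for USP18. The log2 ratios to Control in TRIM11-KD 1 and 2 were 0.09 and 0.15 for ADAR, 1.06 and 0.07 for DDX60, 0.07 and 0.10 for DTX3L and 0.08 and 1.29 for USP18.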

How the results depend on the processing

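Tumors. The 8 members lower became 5 with a fold of at least 2 and 0 at an adjusted p under 0.05 (11 had an unadjusted p under 0.05), and 1 to 16 with each tumor left out, the lowest without Trim11+/+ 2 and the highest without Trim11+/+ 1. Without a filter 1 member was higher, Ifi44l, listed at 0 in all Trim11+/+ tumors and at 0.0654 to 0.0826 FPKM in Trim11+/-. The other settings, pseudocount 0.1, a mean of at least 1, rescaling, eBayes without a trend and limma voom on recovered reads (9 lower), stayed within 1.5 times of 8. The median log2 fold change stayed negative, from -0.69 to -0.29 with each tumor left out. Of 103 refits of single called members, 79 stayed past the rule, 24 did not and 0 turned sign.

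Cell lines against Control. In TRIM11-KD the 3 higher became 1 with 0.1 added, 1 with 1 added, 0 at a fold of 2, 6 by the mean of the lines and 1 in limma over 7 libraries, and 4 to 5 with a line left out (5 without TRIM11-KD 1), where 0 to 2 were lower. At a mean of at least 1 FPKM the 3 higher became 2. The median became 0.031 to 0.10 with a line left out. In KDM5C-KD the 1 higher became 0 with 1 added or a fold of 2 and 1 to 2 with a line left out (2 without KDM5C-KD 1). The 1 lower became 0 with 1 added, a fold of 2 or limma, 4 by the mean of the lines, and 1 to 12 with a line left out (12 without KDM5C-KD 1). The median of -0.18 became -0.13 with 1 added, -0.15 at a mean of at least 1, and -0.19 to -0.15 with a line left out. In DKD the 1 higher became 3 by the mean and 1 to 5 with a line left out (5 without DKD 1). The 3 lower became 1 with 1 added, a fold of 2 or limma, 5 by the mean, and 3 to 10 with a line left out (10 without DKD 2). The DKD median changed sign, from -0.38 without DKD 2 to 0.086 without DKD 1. Leaving out Control was not run, since no comparison remains.

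Between knockdowns, 0 members passed an adjusted p of 0.05 under any setting run. For DKD against KDM5C-KD, higher members at an unadjusted p under 0.05 became 1 with pseudocount 0.1, a mean of at least 1 or rescaling, and 0 to 3 with a line left out, and lower ones 0 to 1. With a line left out, lower members were 0 to 8 for DKD against TRIM11-KD and 0 to 8 for KDM5C-KD against TRIM11-KD, and a lone line was assumed to vary like the others. With the replicate number as a block, 7 members were lower in tumors, and higher members were 2 for DKD against KDM5C-KD and 1 (MX1) for DKD against TRIM11-KD. The numbers pair no tumors, and the block changed no other count by over 1.5 times.

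Between species, 3 of the 11 members called in either table had the same direction, a count partly set by how the 11 were chosen. The count of 12 was 9 to 15 with a line or tumor left out. The cause of these changes was not tested. Low FPKM members (RSAD2, RTP4, USP18, SAMD9L) are the least certain, since the depth of the human libraries is unknown.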
